A study of Arabidopsis thaliana with 34 samples.

Results

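The 10 genes described here are markers of darkness and low energy supply in Arabidopsis thaliana, 10 of the 27538 genes quantified in every library. Of these, 6 are dark-inducible (DIN) genes, DIN1 (AT4G35770, also called SEN1), DIN2 (AT3G60140), DIN3 (AT3G06850), DIN4 (AT3G13450), DIN6 (AT3G47340, also called ASN1) and DIN10 (AT5G20250). The other 4 encode class II trehalose phosphate synthase-like proteins, TPS8 (AT1G70290), TPS9 (AT1G23870), TPS10 (AT1G60140) and TPS11 (AT2G18700). They were chosen by locus name, with no threshold on a measured level, but the list was drawn up with earlier results of these libraries in view, from TPM values and estimated counts over all groups. Counts of how many of them passed a test are therefore a description, not independent evidence about the set. A tRNA splicing endonuclease gene removed by the pAP141 deletion is also called SEN1 and is a different locus from AT4G35770.

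As background, plant cells that run short of sugar, in prolonged darkness or after shading, activate the SnRK1 protein kinase, which acts against the TOR kinase and switches growth towards the breakdown of reserves. DIN genes are widely used readouts of that switch: they were first isolated as transcripts that accumulate when leaves are kept in the dark, and sucrose represses many of them. Trehalose 6-phosphate is a sugar signal that inhibits SnRK1, and several class II TPS transcripts respond to carbon supply, although their proteins are not known to make that metabolite.

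All plants were of the Col-0 background and grew in long days. The seedlings of the time-of-day experiment grew on Murashige and Skoog plates for about 2 weeks. The leaves of the pAP146 experiment were also taken after about 2 weeks. In the time-of-day experiment, pooled seedlings of wild-type Col-0 and of the homozygous deletion lines pAP141 (a deletion on chromosome 3) and pAP142 (a deletion on chromosome 5) were collected in the evening (t1) and in the morning (t2), with 4 and 3 libraries of Col-0, 4 and 2 of pAP141 and 3 and 3 of pAP142. In the pAP146 experiment (a larger deletion on chromosome 3), leaves of single plants were taken from Col-0 (4 libraries), from wild-type siblings of the deletion plants (4) and from heterozygous plants (3), while homozygous plants, which develop late, were taken as whole seedlings (4). The study states a single time point for the pAP146 plants, but its hour was not given in the sources used here. Each deletion was studied in 1 line, so a deletion and anything else that its line carries, including the sequence differences from Col-0 that the study describes for pAP142 outside the deletion, cannot be told apart. In the same way the homozygous pAP146 genotype, whole-seedling tissue and any difference in collection time cannot be told apart. Separate pools or plants stand behind the libraries of a group, so p-values measure the spread among those.

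Library totals lay between 26640541 and 43851997 estimated counts. The labels matched the deletions: the pAP141 gene TET3 had 0 TPM in all pAP141 libraries, the pAP142 gene ES24Y at most 0.183 TPM in pAP142 against at least 581 TPM in the Col-0 and pAP141 seedlings, and 4 pAP146 genes had 0 TPM in all homozygous libraries. The summed morning clock genes CCA1 and LHY lay between 0.566 and 1.37 TPM in the evening and between 101 and 193 TPM in the morning. In the pAP146 experiment they summed to 7.31 to 11.1 TPM in siblings and 11.1 to 17.6 TPM in homozygous seedlings. The evening clock genes TOC1, GI, PRR5, ELF4 and LUX summed to 94.4 to 138.6 and 139.0 to 208.8 TPM there. The study states a single time point for these plants, and whether collection time differed was not tested here. Root markers separated tissues. The sum of 8 of them was 129 to 228 TPM in Col-0 and pAP141 seedlings, 0.775 to 1.82 TPM in leaves, and 7.71, 92.6, 139 and 241 TPM in the 4 homozygous libraries, so the first homozygous library held little root transcript. In pAP142 seedlings the root sum was 35.1 to 112 TPM in the evening and 63.2 to 149.7 TPM in the morning.

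The stretches just upstream of 4 of these genes, and short stretches of DIN6, are shown because these genes carry the largest differences described below: DIN1, DIN2 and DIN6 in pAP142 seedlings, TPS9 and TPS11 in homozygous pAP146 seedlings. Each runs 5′ to 3′ on the strand of its gene and ends at the base before the annotated gene start (RefSeq, assembly TAIR10.1). Capitals, of which the DIN2 and TPS9 stretches have none, mark CACGTG (the G-box, bound by bZIP and bHLH factors), TATCCA (an element of sugar-starvation responses in rice amylase promoters) and GATAAG (the I-box core of light-regulated promoters), on either strand. The DIN1 stretch is 200 bases long because a neighbouring gene lies beyond it, and only 30-base stretches of DIN6 are shown because gene AT3G47341 on the opposite strand overlaps its start.
DIN1, chr4:16944678-16944877, plus strand: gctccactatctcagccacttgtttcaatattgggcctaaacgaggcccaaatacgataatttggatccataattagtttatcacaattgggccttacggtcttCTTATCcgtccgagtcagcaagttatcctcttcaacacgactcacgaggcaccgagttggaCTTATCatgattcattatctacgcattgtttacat
DIN2, chr3:22216290-22216539, plus strand: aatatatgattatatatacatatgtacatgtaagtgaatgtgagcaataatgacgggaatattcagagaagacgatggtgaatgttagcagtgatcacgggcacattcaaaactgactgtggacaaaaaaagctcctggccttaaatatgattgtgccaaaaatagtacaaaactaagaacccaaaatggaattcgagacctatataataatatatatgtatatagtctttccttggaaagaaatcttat
TPS9, chr1:8431929-8432178, plus strand: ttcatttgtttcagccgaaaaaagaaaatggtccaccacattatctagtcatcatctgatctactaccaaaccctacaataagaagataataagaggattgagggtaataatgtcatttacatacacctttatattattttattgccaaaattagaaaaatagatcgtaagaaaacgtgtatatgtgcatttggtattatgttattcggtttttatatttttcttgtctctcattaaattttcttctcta
TPS11, chr2:8108648-8108897, plus strand: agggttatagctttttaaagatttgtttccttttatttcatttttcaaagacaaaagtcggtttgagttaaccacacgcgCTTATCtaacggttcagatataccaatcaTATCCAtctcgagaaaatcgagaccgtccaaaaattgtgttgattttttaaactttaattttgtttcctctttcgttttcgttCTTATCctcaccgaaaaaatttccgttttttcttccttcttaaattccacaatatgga
DIN6, G-box stretch, chr3:17441582-17441611, minus strand: attgtcgtgataaCACGTGtacggctctaa
DIN6, GATAAG and TATCCA stretch, chr3:17441521-17441550, minus strand: caccgtcaGATAAGtaccTATCCActtgct

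The G-box stood upstream of 1 of the 10 genes, DIN6, from 167 to 162 bases before its start, and in 6.49% of the 250-base upstream windows of 27438 protein-coding genes. GATAAG was found for 5 of the 10 (DIN1, DIN3, DIN6, TPS8 and TPS11) and in 12.3% of all windows, TATCCA for 3 (DIN6, TPS10 and TPS11) and in 13.6%. The short core ACGT was found for 6 (DIN4, DIN6, DIN10, TPS8, TPS9 and TPS10) and in 44.1% of all windows. It lies within every CACGTG and was not capitalised elsewhere. The evening element AAAATATCT, a binding sequence of clock factors, was in none of the 10 windows and in 2.36% of all. DIN6 alone among the 10 held all 3 of the capitalised motifs, whereas DIN2, DIN4, DIN10 and TPS9 held none. These matches describe letters in a window and no binding was measured.

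The genes are spread over all 5 chromosomes. DIN2, DIN3, DIN4 and DIN6 lie on chromosome 3, the chromosome that pAP141 and pAP146 shorten, and DIN10 lies on chromosome 5. All of them kept counts in the deletion lines. The coding lengths in the files, from 549 bases for DIN1 to 2604 for TPS9, were those of the RefSeq models. Coding sequences of TPS8 and TPS9 were 81.5% identical over 2563 aligned bases, and other pairs of the 4 TPS genes 67.3% to 73.1%. Stretches of 31 bases, the length the quantifier indexes, were rarely shared: 4 of 2541 in TPS8 also occurred in TPS9, 12 of 1704 in DIN2 occurred in AT2G44470, and none occurred elsewhere for 7 of the genes.

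DIN1 encodes a plastid protein of the sulfurtransferase (rhodanese) family and is a classical transcript of leaf senescence. Its level, in TPM (a level per length, scaled to the same total in each library), varied more than 100-fold between libraries, from 3.87 in heterozygous replicate 1 to 655 in pAP142 t2 replicate 3. In the evening it was 50.6, 135, 99.2 and 142 TPM in Col-0, 85.7, 48.2, 80.4 and 101 TPM in pAP141, and 319, 389 and 297 TPM in pAP142. The 3 pAP142 libraries stood above all 8 others. In the morning it was 326, 87.9 and 202 TPM in Col-0, 211 and 186 TPM in pAP141, and 168, 394 and 655 TPM in pAP142, and the groups overlapped. Leaves held little, 8.36, 5.83, 22.9 and 6.40 TPM in Col-0, 6.98, 14.2, 4.09 and 12.8 TPM in siblings and 3.87, 16.9 and 16.3 TPM in heterozygotes, against 20.5, 32.5, 51.5 and 50.7 TPM in homozygous seedlings.

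DIN2 encodes a beta-glucosidase (BGLU30), an enzyme class that releases sugar from glycosides. It was the gene nearest to silence in most groups and the one that differed most between lines. Evening levels were 0.854, 2.29, 1.39 and 3.33 TPM in Col-0, 0.908, 1.19, 0.740 and 0.885 TPM in pAP141, and 33.1, 38.5 and 35.8 TPM in pAP142. The pAP142 libraries lay far above all Col-0 and pAP141 libraries, and the mean of pAP142 t1, 35.8 ± 2.68 TPM (SD, n = 3), was the highest of the 10 groups. Morning levels were 7.93, 1.34 and 2.03 TPM in Col-0, 1.24 and 2.0 TPM in pAP141 and 4.11, 8.37 and 22.3 TPM in pAP142. In leaves the gene was listed at 0 in 8 of 11 libraries, with 1 estimated count in 1 Col-0 library and 9 and 5 in the heterozygotes, where 3 counts correspond to 0.0254 to 0.0352 TPM.

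DIN3 and DIN4 encode the E2 and E1-beta subunits of the mitochondrial branched-chain keto acid dehydrogenase, which commits leucine, isoleucine and valine to breakdown. Their levels moved in a narrow range, from 4.59 to 28.4 TPM for DIN3 and from 12.7 to 51.5 TPM for DIN4 over the 34 libraries. Evening DIN4 was 19.4, 31.7, 23.7 and 28.0 TPM in Col-0, 22.1, 20.3, 21.1 and 22.7 TPM in pAP141 and 42.5, 48.8 and 41.1 TPM in pAP142. Evening DIN3 was 13.8, 19.8, 17.4 and 17.7 TPM in Col-0, 14.2, 14.7, 13.4 and 15.4 TPM in pAP141 and 20.7, 28.4 and 20.6 TPM in pAP142. For both subunits the pAP142 evening libraries stood above all Col-0 and pAP141 evening libraries, DIN3 by a small margin. In leaves DIN3 averaged 5.55 to 6.71 TPM and DIN4 13.7 to 14.5 TPM.

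DIN6 encodes a glutamine-dependent asparagine synthetase, which packs nitrogen into asparagine when carbon is scarce. Evening levels were 5.15, 17.5, 10.9 and 16.0 TPM in Col-0, 6.74, 4.14, 8.91 and 12.7 TPM in pAP141 and 89.0, 108 and 86.2 TPM in pAP142. Morning levels were 59.4, 22.8 and 39.9 TPM in Col-0, 29.7 and 36.2 TPM in pAP141 and 49.3, 110.1 and 141 TPM in pAP142. In Col-0 and pAP141 every morning library was above every evening library, and in pAP142 the time points overlapped. In the pAP146 experiment DIN6 was 1.47, 2.23, 5.42 and 2.46 TPM in Col-0 leaves, 2.21, 5.83, 3.26 and 3.79 TPM in siblings, 3.10, 8.46 and 5.25 TPM in heterozygotes and 4.05, 5.32, 24.8 and 9.04 TPM in homozygous seedlings, where replicate 3 stood apart.

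DIN10, of the raffinose synthase family (also named RS6), had the highest mean TPM of the 10 genes in 6 of the 10 groups, and DIN1 in the other 4. Its evening levels were 122, 187, 164 and 178 TPM in Col-0, 124, 105, 119 and 129 TPM in pAP141 and 258, 321 and 272 TPM in pAP142, with pAP142 above all others. Its morning levels were 120.1, 77.7 and 107 TPM in Col-0, 90.4 and 127 TPM in pAP141 and 92.7, 120.3 and 171 TPM in pAP142. Leaves held 17.6 to 56.2 TPM and homozygous seedlings 52.3, 88.4, 117 and 109 TPM.

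The class II TPS genes had another order of groups. The time-of-day seedlings and the leaves came from separate experiments. In the levels of these genes and of the DIN genes, tissue, experiment and collection time therefore cannot be told apart between them. TPS8 was lowest in seedlings, at 8.65 to 22.8 TPM, higher in leaves, at 20.3 to 40.4 TPM, and highest in homozygous seedlings, at 56.9, 60.3, 62.9 and 64.4 TPM. TPS11 was 6.57 to 17.5 TPM in seedlings, 7.29 to 26.8 TPM in leaves and 48.1, 54.7, 49.4 and 47.4 TPM in homozygous seedlings. For both genes the homozygous libraries lay above all others in TPM. On counts scaled by the trimmed mean of M-values (TMM), this held within the pAP146 experiment for TPS11 but not for TPS8. In CPM (counts scaled to library size) on that scale, TPS8 was 182.4, 184.0, 185.1 and 191.8 in homozygous seedlings. It was 93.5, 189.7 and 188.1 in heterozygotes, so these groups overlapped. TPS9, the closest relative of TPS8 by sequence, had the reverse order between seedlings and leaves, with 11.8 to 20.7 TPM in seedlings, 2.54 to 7.57 TPM in leaves and 16.4, 16.4, 22.9 and 25.6 TPM in homozygous seedlings. TPS10 followed TPS9 here, with 7.44 to 26.1 TPM in seedlings, 5.62 to 9.80 TPM in leaves and 15.1, 22.4, 20.7 and 27.1 TPM in homozygous seedlings.

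**Figure D1:**
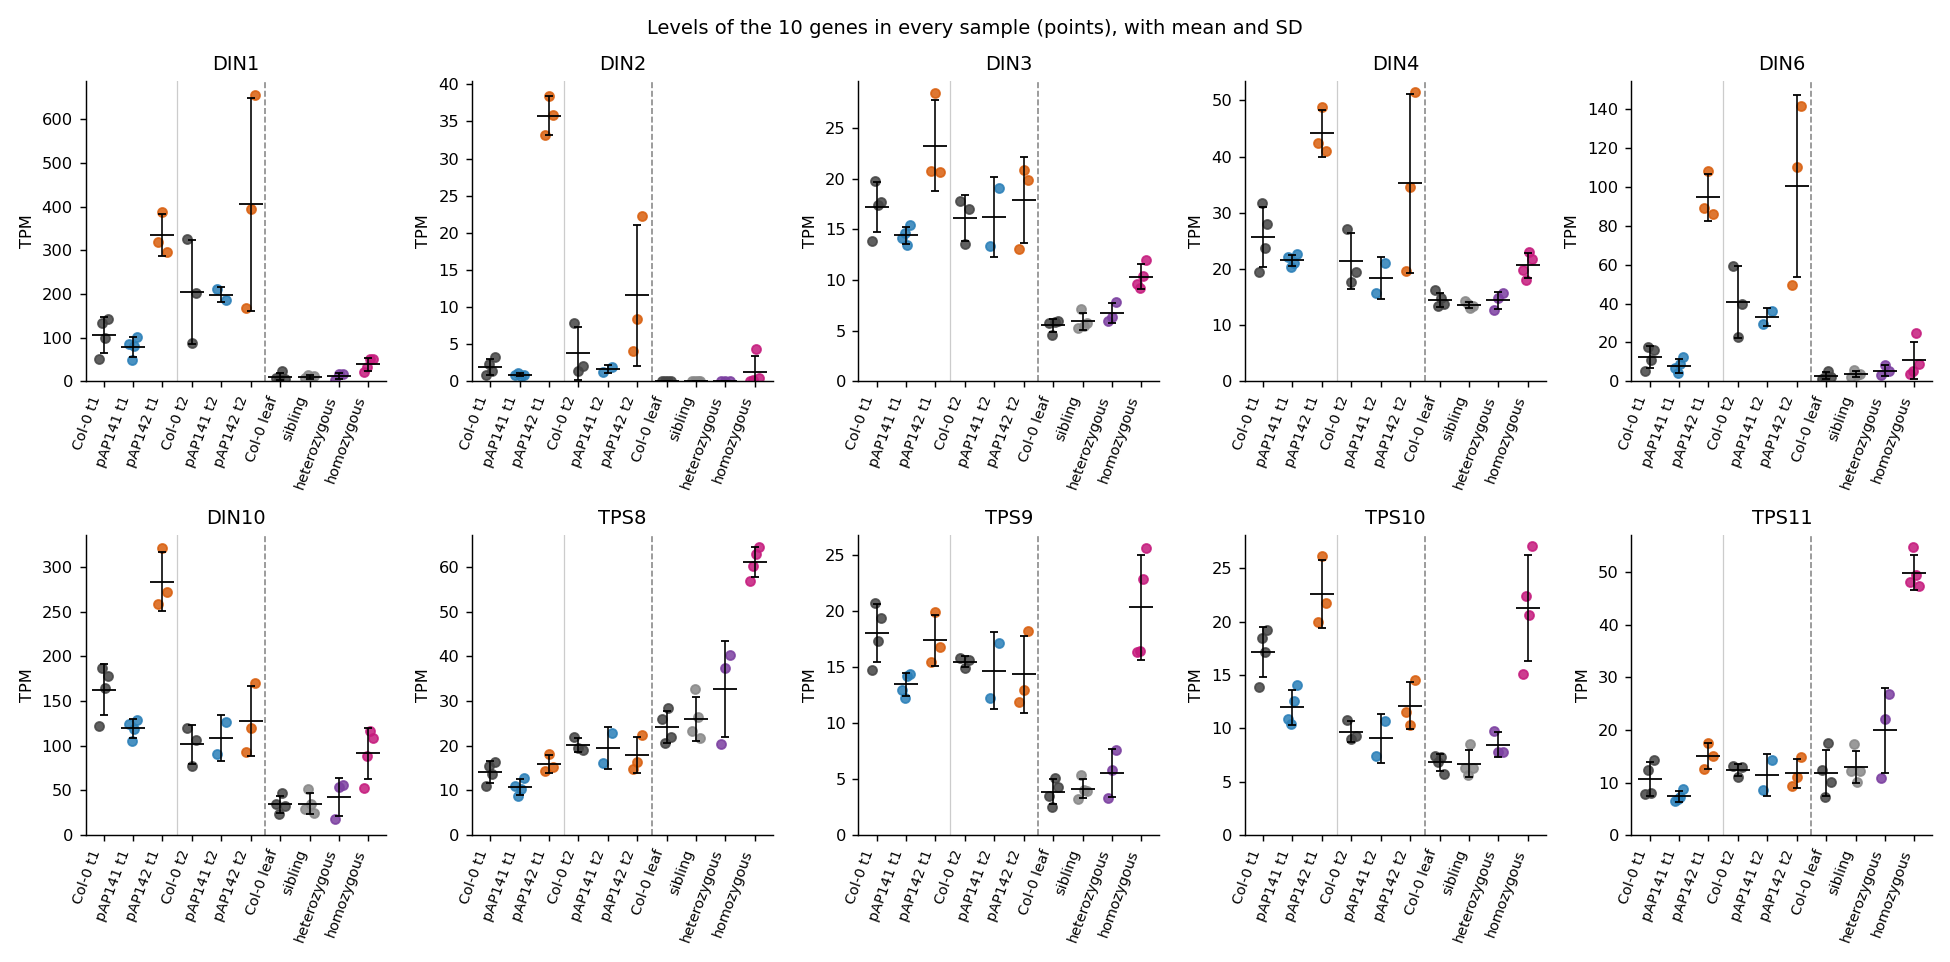
Levels in TPM (vertical axis, from 0, own scale for each gene) of the 10 genes in 10 groups, 1 point per library, with mean and SD in black; the dashed line separates the time-of-day seedlings from the pAP146 experiment. The pAP142 evening libraries lie above the other evening libraries for each DIN gene (DIN2 at 33.1 to 38.5 TPM). These genes were chosen with earlier results in view, and the share of all genes with such a gap was not counted. In TPM the homozygous libraries are highest for TPS8 and TPS11, but on TMM-scaled counts those of TPS8 overlap the heterozygotes.

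Ordered by group mean, all 6 DIN genes had pAP142 in the 2 highest places except DIN10, whose order was pAP142 t1, Col-0 t1, then pAP142 t2. Most neighbours in these orders overlapped. Of the 9 neighbouring pairs per gene, the libraries of 2 pairs did not overlap for DIN1, DIN2, DIN3 and DIN6, of 1 pair for DIN10 and each TPS gene, and of none for DIN4. For DIN2 those breaks lay between pAP142 t1 and pAP142 t2 and between pAP141 t1 and the heterozygotes. For DIN10 the single break lay between pAP142 t1 and Col-0 t1. The share of all genes with such breaks was not counted, so these numbers describe the libraries and not the set.

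The comparison of pAP142 with Col-0 asks how transcripts respond to the loss of a block on chromosome 5 at a given time of day. In the evening, 8 of the 10 genes were higher in pAP142 and none lower, where 9.39% of the 21356 genes tested were higher and 8.94% lower. Fold changes come from edgeR's quasi-likelihood test on counts scaled by the trimmed mean of M-values (TMM), with p adjusted over all genes by Benjamini-Hochberg and a call below 0.05. DIN2 differed most and was 19.0-fold higher (log2 4.25, SE 0.59, adjusted p = 0.0002). DIN6 was 7.96-fold higher (log2 2.99, SE 0.43, adjusted p = 0.00024) and DIN1 3.23-fold (log2 1.69, SE 0.45, adjusted p = 0.016). The raffinose synthase family gene DIN10 was 1.80-fold higher (log2 0.85, SE 0.18, adjusted p = 0.0041).

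Smaller evening differences passed for the keto acid dehydrogenase subunits and for TPS10 and TPS11. DIN4 was 1.77-fold higher (log2 0.83, SE 0.23, adjusted p = 0.019) and its partner subunit DIN3 1.39-fold (log2 0.48, SE 0.16, adjusted p = 0.048). TPS10 was 1.36-fold higher (log2 0.44, SE 0.11, adjusted p = 0.013) and TPS11 1.47-fold (log2 0.55, SE 0.18, adjusted p = 0.045), while TPS8 (log2 0.22, SE 0.14) and TPS9 (log2 -0.01, SE 0.13) did not pass. The median over the 10 was 0.69, against -0.03 over all genes tested. Of these 8, 3 calls (DIN2, DIN6 and DIN10) remained without pAP142 t1 replicate 2, and 5 without Col-0 t1 replicate 1, which lost DIN3, DIN4 and TPS11. DIN3 passed in none of the 7 tests that left out 1 library and TPS11 in 1 of them.

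Other markers moved with this difference. Of 8 root markers, 5 were lower in pAP142 t1, beside 8.94% of all genes (their sum was 112, 35.1 and 58.8 TPM in replicates 1 to 3, below all 4 libraries of Col-0 t1, which reached 222 TPM, with none at 0 in every library), and of 6 shoot markers 1 was lower. The part of root and shoot transcripts in the result was not tested. As in any bulk sample, fewer cells of a type and less RNA per cell cannot be told apart. Of 7 leaf senescence genes tested, 3 were higher and none lower (9.39% and 8.94% of all genes): NAP (log2 1.65) and ORE1 (log2 1.0), NAC transcription factors that promote senescence, and SGR1 (log2 0.86), which acts in chlorophyll breakdown. SAG12, a late marker of leaf senescence, was too low to be tested.

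In the morning none of the 10 genes passed the edgeR test between pAP142 and Col-0, where 5.07% of genes were higher and 2.67% lower. Log2 fold changes ran from -0.14 to 1.70, the median being 0.36 against -0.01 over all genes. The highest were DIN2 at 1.70 (SE 0.60, adjusted p = 0.099), DIN6 at 1.35 (SE 0.45, adjusted p = 0.078) and DIN1 at 1.04 (SE 0.48, adjusted p = 0.21). At an unadjusted p under 0.05, 5 genes were higher (DIN1, DIN2, DIN4, DIN6 and TPS10), and DESeq2 called 2 (DIN4 and DIN6). The pAP142 morning libraries differed widely: the summed DIN level was 347, 688 and 1061 TPM in replicates 1 to 3, beside root sums of 149.7, 63.2 and 89.6 TPM, and replicate 1 had the lowest level of each DIN gene. Without that library 3 genes passed (DIN2, DIN4 and DIN6), and without Col-0 t2 replicate 1, which had the highest DIN sum of its group (559 TPM), 1 did (DIN2). Both comparisons use their own Col-0 libraries, and these also serve the pAP141 comparisons.

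In pAP141 none of the 10 genes passed in the evening, where 0.0749% of all genes did, or in the morning, where 0.0983% did. Evening log2 fold changes were all below 0, from -0.86 (DIN2) to -0.06, with a median of -0.26 against -0.01 over all genes, and with TPS10 alone at an unadjusted p under 0.05 and called by DESeq2 at log2 -0.33 (adjusted p = 0.048). Morning values ran from -0.97 (DIN2) to 0.31 (DIN10), with a median of 0.13 against 0.01. None had an unadjusted p under 0.05 there, and DESeq2 called 0. The counts over all genes rest on single libraries, with 2418 genes called without pAP141 t1 replicate 3 in the evening and 2472 without pAP141 t2 replicate 2 in the morning, while among the 10 genes no call was gained by leaving out any library. For DIN6 the evening difference was -0.44 in pAP141 (SE 0.39) and 2.99 in pAP142 (SE 0.43), each against the same 4 Col-0 libraries.

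**Figure D2:**
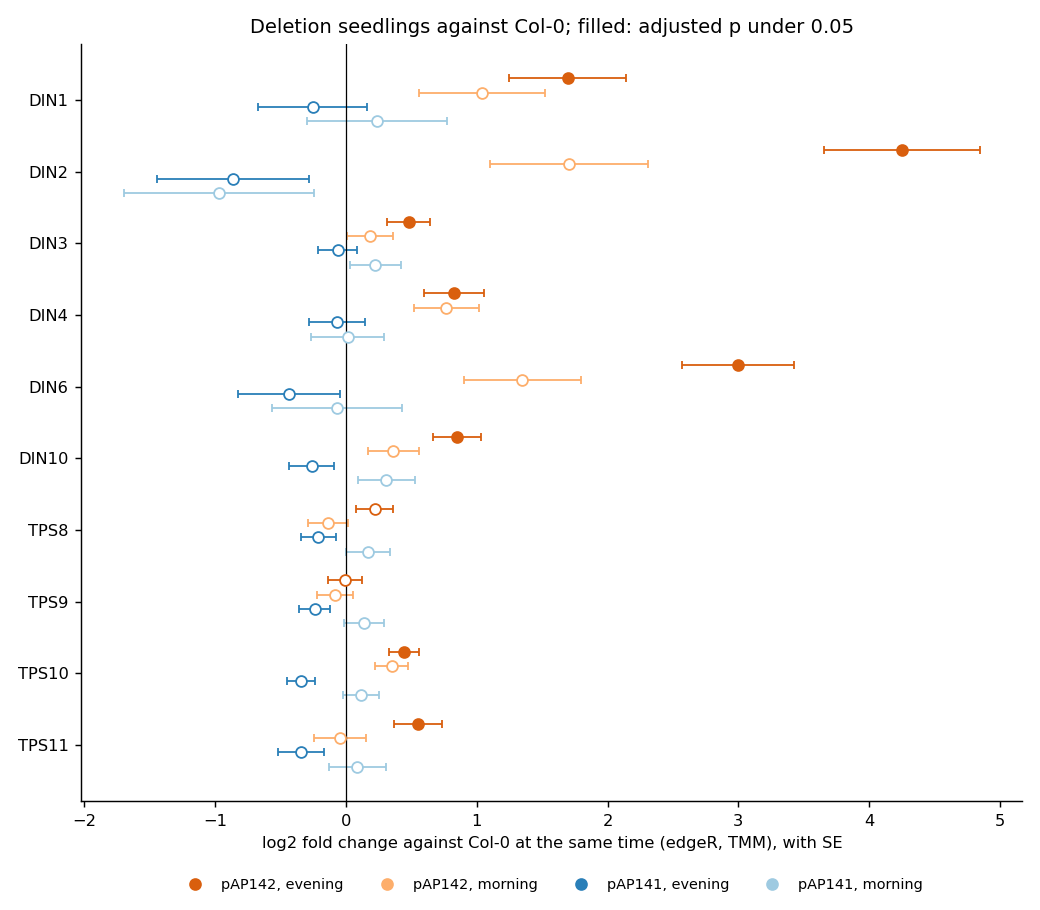
Log2 fold changes (horizontal axis, edgeR on TMM-scaled counts, bars are SE) of pAP142 and pAP141 against Col-0 at the same time of day for the 10 genes; filled points passed the adjusted p threshold. The filled points are the 8 evening genes of pAP142, from 0.44 for TPS10 to 4.25 for DIN2.

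From evening to morning in Col-0, 2 of the 10 genes rose, where 14.0% of all genes did, and 1 was lower, where 16.6% were. DIN6 rose 3.79-fold (log2 1.92, SE 0.42, adjusted p = 0.0020) and TPS8 1.63-fold (log2 0.71, SE 0.14, adjusted p = 0.00079), from 10.9, 15.5, 13.7 and 16.3 to 21.9, 19.4 and 19.1 TPM. TPS10 fell by 0.63 on the log2 scale (SE 0.12, adjusted p = 0.00043), from 13.9, 18.4, 17.1 and 19.2 to 10.8, 9.01 and 9.29 TPM. For all 3 the libraries of the time points did not overlap, and the share of all genes with such a gap was not counted. DIN10 was at -0.48 (SE 0.19, adjusted p = 0.060) and DIN1 at 1.14 (SE 0.45, adjusted p = 0.065), and the median of the 10 was 0.27, against -0.01 over all genes. Leaving out 1 library brought DIN1 (1.51, adjusted p = 0.017, without Col-0 t2 replicate 2), DIN10 (-0.58, adjusted p = 0.031, without Col-0 t1 replicate 1) and TPS11 (0.60, adjusted p = 0.017, without Col-0 t1 replicate 4) past the threshold.

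In pAP141, 4 genes were higher in the morning (17.9% of all genes) and none lower (16.7%). These were DIN6 (log2 2.29, SE 0.45, adjusted p = 0.00089), DIN1 (log2 1.63, SE 0.49, adjusted p = 0.016), TPS8 (log2 1.09, SE 0.16, adjusted p = 2.7e-05) and TPS11 (log2 0.86, SE 0.21, adjusted p = 0.0034). The median of the 10 was 0.63, against -0.0046 over all genes. The count was 7 with the groups compared alone and 2 with limma on log2(TPM + 1). The morning group has only 2 libraries. Without replicate 1 of it DIN1 did not pass (log2 1.28, adjusted p = 0.15), and without replicate 2 TPS11 did not (log2 0.70, adjusted p = 0.060).

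In pAP142, 2 genes were lower in the morning (13.9% of all genes) and none higher (13.1%). DIN10 fell by 0.97 on the log2 scale (SE 0.20, adjusted p = 0.0012) and TPS10 by 0.72 (SE 0.12, adjusted p = 0.00022), both without overlap, and the median of the 10 was -0.15, against -0.01. The share of all genes without overlap was not counted. DIN6, which rose in the other lines, was at 0.28 (SE 0.44, adjusted p = 0.71), and DIN2 at -1.44 (SE 0.58, adjusted p = 0.082), with 33.1 to 38.5 TPM in the evening and 4.11 to 22.3 TPM in the morning. Without pAP142 t2 replicate 3 the DIN2 value was -2.33 (adjusted p = 0.011), and without pAP142 t2 replicate 1 that of TPS8 was 0.50 (adjusted p = 0.022).

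The difference between lines in this morning change was itself tested. For pAP142 none of the 10 passed, where 0.211% of genes did, and DESeq2 called 0. All 10 values were below 0, from -2.55 to -0.06, and at an unadjusted p under 0.05 stood DIN2 (-2.55, SE 0.82, adjusted p = 0.26), DIN6 (-1.65, SE 0.60, adjusted p = 0.33) and TPS11 (-0.60, SE 0.27, adjusted p = 0.45). In the same test of pAP141 there was no call among the 10 by either tool, and edgeR called 0% of all genes. There 9 values were above 0, up to 0.57 for DIN10, with TPS10 alone at an unadjusted p under 0.05.

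**Figure D3:**
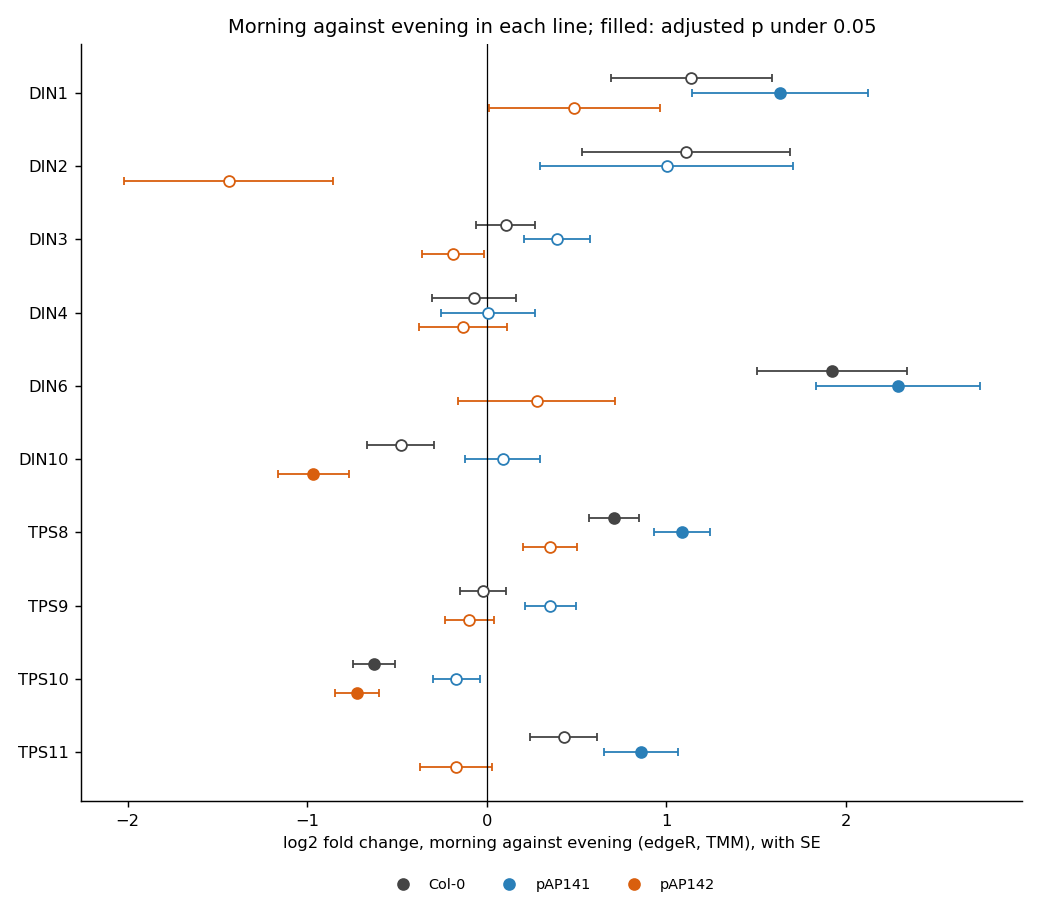
Log2 fold changes (horizontal axis, edgeR, bars are SE) from evening to morning within Col-0, pAP141 and pAP142 for the 10 genes; filled points passed the adjusted p threshold. DIN6 is at 1.92 in Col-0, 2.29 in pAP141 and 0.28 in pAP142, and TPS10 is below 0 in all 3 lines.

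In the pAP146 experiment, homozygous seedlings were compared with sibling leaves, which asks for the response to the full loss of the block but also crosses tissues. Of the 10 genes 5 were higher (33.0% of the 20833 genes tested) and none lower (27.8%), so the share is to be read against calls for 60.8% of all genes. TPS9 was 2.93-fold higher (log2 1.55, SE 0.26, adjusted p = 0.00016), TPS11 2.30-fold (log2 1.20, SE 0.29, adjusted p = 0.0027), TPS10 1.91-fold (log2 0.94, SE 0.16, adjusted p = 0.00014) and TPS8 1.41-fold (log2 0.50, SE 0.19, adjusted p = 0.037). The fifth was DIN2, which entered the test only through the homozygous libraries, in which it is high, so its call adds nothing to the count. The homozygous libraries lay above the sibling libraries for each TPS gene on the TMM scale, TPS11 for example at 142 to 168 CPM (counts scaled to library size) against 47.5 to 87.0. The share of all genes with such a gap was not counted, so this describes the libraries and not the set. For DIN2, homozygous replicate 1 held 2 estimated counts, below the floor of 3 used here, and cannot be told apart from siblings at 0. TPS8 passed in 1 of the 8 tests that left out 1 library, and TPS9, TPS10 and TPS11 in all 8, also without homozygous replicate 1, the one with little root transcript.

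DIN2 had 2, 23, 435 and 31 estimated counts in the homozygous libraries (0.0212, 0.239, 4.42 and 0.409 TPM) and 0 in all 4 siblings. Replicate 3 held most of it. With 3 counts per library as the floor of the siblings, the homozygous mean of 1.27 TPM was at least 38.7-fold higher on the TPM scale. Without replicate 3 it was at least 6.80-fold higher. These bounds are TPM ratios and need not hold on the TMM scale of the other fold changes, since the scales differed by 0.74 in log2 here. The gene entered the test only through the homozygous libraries, in which it is high, and its call (adjusted p = 0.0035) could not be repeated without replicate 2, 3 or 4, when it no longer passed the filter on low counts; 3 of the 10 genes then passed. DIN1 (log2 1.24, SE 0.57, adjusted p = 0.072), DIN6 (0.76, SE 0.56, adjusted p = 0.25) and DIN10 (0.64, SE 0.35, adjusted p = 0.13) did not pass, and DIN3 (0.06, SE 0.13) and DIN4 (-0.15, SE 0.11) were near 0. The median of the 10 was 0.85, also with DIN2 at its bound, against 0.07 over all genes.

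These values depend on the scaling more than any others. A shift of 0.74 separated the log2 ratio of TPM from the TMM value for the median gene of this comparison. Beside it, the sum of 6 shoot markers, photosynthesis transcripts for the most part, was 83645 to 95974 TPM in siblings and 36317 to 60223 TPM in homozygous seedlings. The shift was also 0.74 against Col-0 leaves, and lay between -0.24 and 0.09 in the comparisons without homozygous seedlings. On the TPM scale, limma called 9 of the 10 genes higher with a pseudocount of 1, and DIN4 turned from -0.15 to 0.56. The share of all genes called on that scale is not given here, so this count describes the scaling and not the set. All 6 shoot markers were lower and all 8 root markers higher in the homozygous seedlings, while PER27, PER57 and EXPA7 were at 0 in all siblings. The part of tissue in these differences was not tested within the experiment, and it cannot be told apart from genotype.

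Against Col-0 leaves the same 5 genes passed, 33.8% of all genes being higher and 28.2% lower. DIN2 is among the 5 and again entered the test only through the homozygous libraries, so its call adds nothing to the count. The others were TPS9 at 1.64 (SE 0.26, adjusted p = 9.9e-05), TPS11 at 1.33 (SE 0.29, adjusted p = 0.0013), TPS10 at 0.89 (SE 0.15, adjusted p = 0.0002) and TPS8 at 0.59 (SE 0.19, adjusted p = 0.016). The median of the 10 was 0.97, against 0.07. Both comparisons share the homozygous libraries. Without Col-0 leaf replicate 3, DIN1 (1.75, adjusted p = 0.015) and DIN6 (1.64, adjusted p = 0.028) passed as well. Among leaves none of the 10 genes differed by the test: between heterozygotes and siblings 0.0528% of genes passed in edgeR, and between siblings and Col-0 0.0144%. No gene of the 10 had an unadjusted p under 0.05 in either, and DESeq2 called 0. Heterozygous log2 values were 0.53 for TPS11 (SE 0.31), 0.51 for DIN6 (SE 0.60) and 0.34 for TPS9 (SE 0.27). The heterozygotes themselves spread widely, TPS11 being 10.9, 22.1 and 26.8 TPM and DIN10 17.6, 53.5 and 56.2 TPM.

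**Figure D4:**
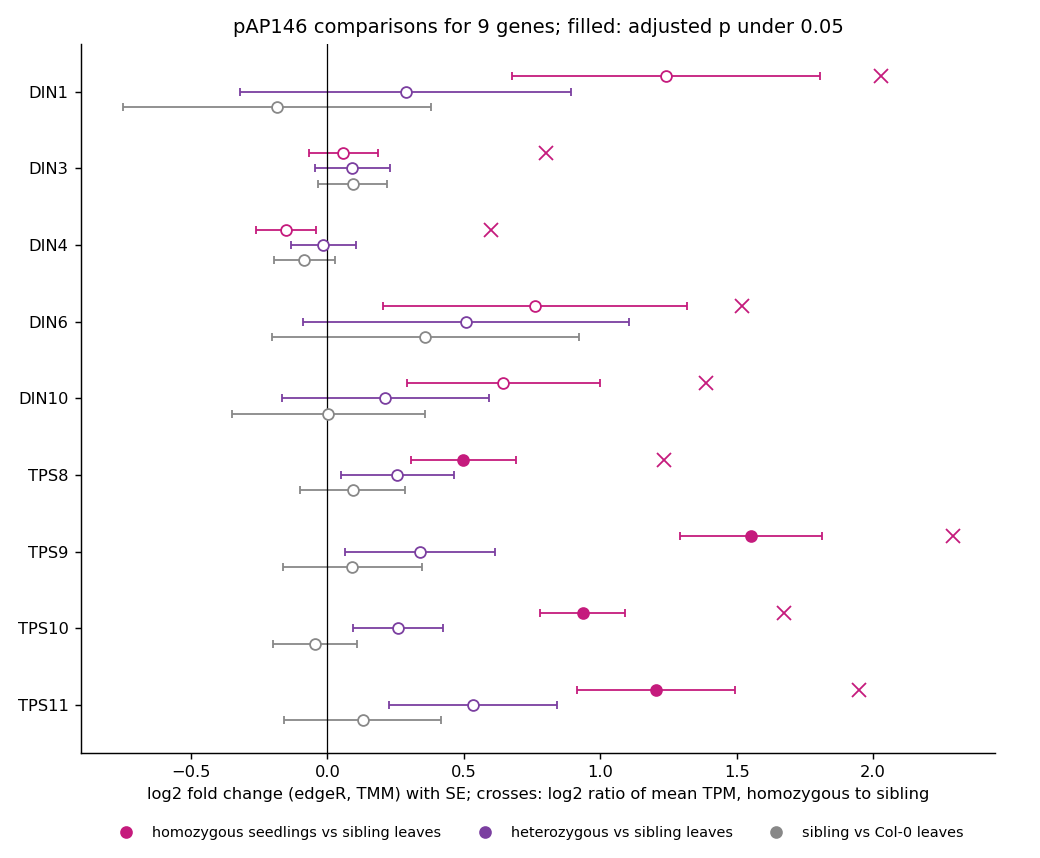
Log2 fold changes (horizontal axis, edgeR on TMM-scaled counts, bars are SE) in the pAP146 experiment for 9 genes, DIN2 being left out because all siblings are at 0; crosses give the log2 ratio of mean TPM of homozygous seedlings to siblings. Filled points are TPS8, TPS9, TPS10 and TPS11, and the crosses lie to the right of the homozygous points for every gene shown.

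Genes of the surrounding pathways were taken from lists drawn up by function, and all their counts are on the TMM scale. In pAP142 t1, 8 of 17 other starvation-induced genes were higher and none lower, with a median of 0.56, beside 9.39% of all genes higher and 8.94% lower. Those with the smallest adjusted p were ERD5, a proline dehydrogenase (log2 1.59, SE 0.16, adjusted p = 6.1e-06), MIOX4, a myo-inositol oxygenase (log2 3.27, SE 0.33, adjusted p = 8.8e-06), EXL2 (log2 1.43, SE 0.17, adjusted p = 4.0e-05) and GDH2, a glutamate dehydrogenase (log2 1.47, SE 0.21, adjusted p = 0.00022). ERD5 was 120 to 191 TPM in Col-0 t1 and 451 to 470 TPM in pAP142 t1. In the morning 6 of the 17 were higher in pAP142 and 2 lower (5.07% and 2.67% of all genes), MIOX4 again being higher (log2 1.90, SE 0.35, adjusted p = 0.0036) and DRM1 lower (log2 -0.90, SE 0.22, adjusted p = 0.018). In homozygous pAP146 seedlings 12 of the 17 were higher than in siblings and none lower (median 1.05), beside 33.0% of all genes higher and 27.8% lower, led by BGAL4, a beta-galactosidase (log2 3.14, SE 0.25, adjusted p = 2.4e-07).

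The partners of DIN3 and DIN4 in branched-chain amino acid breakdown gave 3 higher and 1 lower of 15 in pAP142 t1 (median 0.26), beside 9.39% of all genes higher and 8.94% lower. BCAT2, a branched-chain aminotransferase, was 58.5 to 87.1 TPM there against 6.78 to 23.1 TPM in Col-0 t1 (log2 2.27, SE 0.48, adjusted p = 0.0045). The E1-alpha gene BCKDH E1A1 (1.43, SE 0.30, adjusted p = 0.0037) and the second E1-beta gene BCKDH E1B1 (0.71, SE 0.14, adjusted p = 0.0023) were higher, and the second E1-alpha gene BCKDH E1A2 lower (-0.66, SE 0.14, adjusted p = 0.0031). From evening to morning in Col-0, 7 of the 15 fell and none rose (median -0.26), where 16.6% of all genes were lower and 14.0% higher, mtLPD2, an E3 subunit, by 0.48 (SE 0.07, adjusted p = 5.3e-05). In homozygous seedlings 3 of the 15 were higher and 5 lower than in siblings, near the shares over all genes (33.0% and 27.8%).

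Around the TPS genes, 15 others of trehalose 6-phosphate metabolism were followed. In pAP142 4 were higher and 1 lower in the evening (median 0.32; 9.39% and 8.94% of all genes) and 8 higher and none lower in the morning (median 0.57; 5.07% and 2.67% of all genes). The trehalose phosphate phosphatase TPPD was 2.13 higher on the log2 scale in the evening (SE 0.19, adjusted p = 1.4e-06) and 1.76 in the morning (SE 0.20, adjusted p = 5.8e-05), though its level was low, 0.837 ± 0.135 TPM in Col-0 t1 (SD, n = 4) and 3.61 ± 1.29 TPM in pAP142 t1 (SD, n = 3). TPPG was 1.05 higher in the evening (SE 0.14, adjusted p = 8.3e-05) and 1.31 in the morning (SE 0.15, adjusted p = 6.4e-05). In homozygous seedlings 4 of 14 were higher and 7 lower than in siblings (33.0% and 27.8% of all genes), TPS1, the catalytic synthase, being lower (-1.11, SE 0.12, adjusted p = 2.8e-06) while all 4 class II genes above were higher.

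Of 17 SnRK1 and TOR signalling genes, 5 were higher and none lower in pAP142 t1 (median 0.08), beside 9.39% of all genes higher and 8.94% lower, and none of them was a kinase subunit of SnRK1. They were the bZIP factors bZIP53 (0.73, SE 0.09, adjusted p = 4.0e-05), bZIP44 (0.94, SE 0.16, adjusted p = 0.00071) and bZIP1 (0.99, SE 0.25, adjusted p = 0.012), and the TOR-pathway kinases S6K1 (0.59, SE 0.10, adjusted p = 0.00055) and S6K2 (0.76, SE 0.16, adjusted p = 0.0030). In Col-0, S6K1 rose by morning (1.73, SE 0.10, adjusted p = 1.9e-10) and bZIP11 fell (-1.32, SE 0.14, adjusted p = 1.2e-06). Of 7 asparagine and glutamine synthesis genes, none was higher in pAP142 t1 (9.39% of all genes) and 1 was lower (8.94%). ASN2, the second asparagine synthetase, was the lower one (-0.48, SE 0.14, adjusted p = 0.025), opposite in sign to DIN6. ASN2 also fell from evening to morning in Col-0 (-1.06, SE 0.14, adjusted p = 1.7e-05), where DIN6 rose.

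Relatives of the DIN genes did not all follow them. Of 9 tested in pAP142 t1, 2 were higher and 1 lower (9.39% and 8.94% of all genes): SIP2, a raffinose synthase family member like DIN10 (1.32, SE 0.18, adjusted p = 0.00013), and BGLU28, a beta-glucosidase like DIN2 (3.87, SE 1.0, adjusted p = 0.014), were higher, and RS5 was lower (-0.58, SE 0.14, adjusted p = 0.0082). BGLU28 was uneven, with 1.62, 4.91 and 45.4 TPM as lowest, median and highest of the 3 pAP142 libraries. The 4 sulfurtransferase genes STR14, STR16, STR17 and STR18 did not pass, with values from -0.78 to 0.04. In the homozygous seedlings 4 of 9 were higher and 1 lower (33.0% and 27.8% of all genes), STR14 being the lower one (-1.69, SE 0.19, adjusted p = 5.0e-06).

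**Figure D5:**
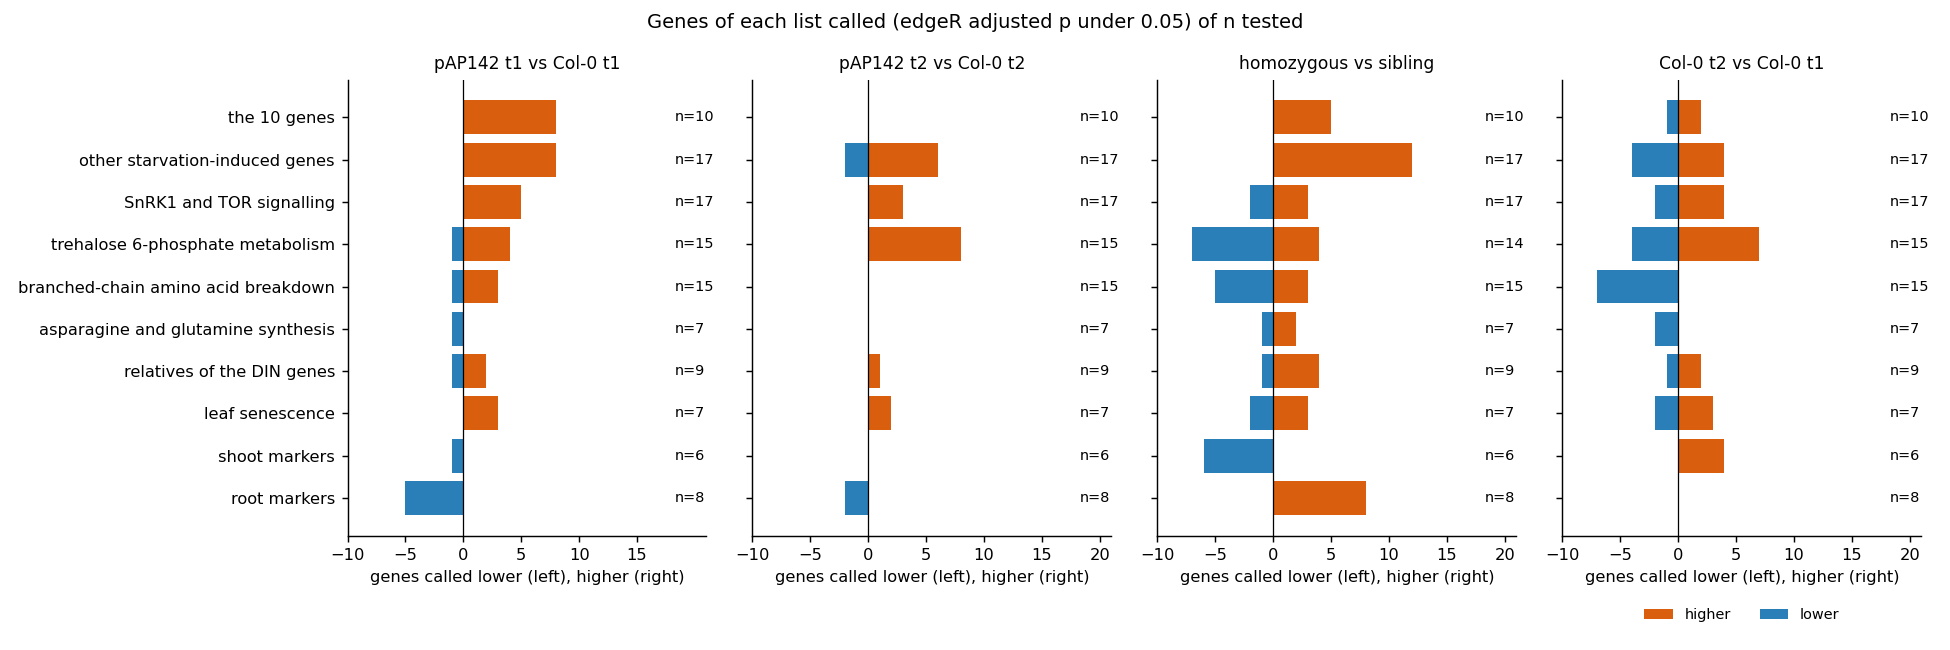
Number of genes called higher (right of 0) and lower (left of 0) by edgeR in each list, with the number tested (n) at the right, in 4 comparisons. In pAP142 t1 the 10 genes and the other starvation-induced genes are called only to the right, 8 of 10 and 8 of 17, while 5 of 8 root markers are called to the left.

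The genes most like each member over all 34 libraries were found among 12925 genes of at least 5 TPM on average, as the smallest root-mean-square difference of log2(TPM + 1) values centred within each experiment. DIN1 was the nearest gene to DIN6 (0.60), and DIN6 itself had an SD of 1.23. The next were GAT1_2.1 (0.62) and AT4G26288 (0.67), the latter also the nearest to DIN1 (0.52). DIN3 lay nearest to ETFQO (0.13), the electron acceptor of mitochondrial amino acid oxidation, and ACX4 (0.16), an acyl-CoA oxidase, and DIN4 nearest to IVD (0.16), isovaleryl-CoA dehydrogenase of leucine breakdown. Among the 10, DIN3 and DIN4 differed least (0.24), followed by TPS9 and TPS11 (0.27) and by TPS8 and TPS11 (0.29). These are to be read beside each gene's own SD, 0.31 for DIN3, 0.40 for DIN4, 0.47 for TPS8, 0.65 for TPS9 and 0.67 for TPS11. Genes that vary little have small distances, so the order does not rank the likeness of pattern. DIN10 was nearest to EXL2 (0.32), TPS11 to ACBP3 (0.25), TPS10 to MFP2 (0.15), TPS8 to LSD1 (0.21), TPS9 to AT1G21830 (0.19) and DIN2 to GLYI7 (0.49). Second nearest were PI to DIN2 (0.55) and IDD7 to DIN4 (0.19). These distances describe shared libraries and were not tested.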

How the data were processed

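Libraries from a stranded mRNA kit were sequenced, and the authors quantified them with salmon 1.6.0 against the Araport11 primary transcriptome, 1 transcript per gene, and deposited per library the estimated counts and the TPM values. HISAT2 2.2.1 alignments served the authors for inspection. Whether the counting used strand was not given in the sources used here. From these, estimated counts were rounded, genes kept with filterByExpr by group, scaled by TMM and tested per experiment over all its groups with edgeR 4.0.16 (quasi-likelihood, robust) in R 4.3.3, with Benjamini-Hochberg adjustment over all genes and a call below 0.05. This left 21356 genes in the time-of-day and 20833 in the pAP146 experiment. Levels are TPM as deposited.

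Alternatives were RLE size factors, no filter, DESeq2 1.42.0, the compared groups alone, a replicate block, limma 3.58.1 on log2(TPM + 1) and log2(TPM + 0.1), and leaving out each library. Members and lists were chosen with earlier results of these data known. All 10 members were named, with up to 4 genes of smallest adjusted p per list and comparison. The nearest pattern was named for each member, and further ones for DIN2, DIN3, DIN4 and DIN6 only. Levels set beside the named genes, and bZIP1, BGLU28 and the STR genes in pAP142, were picked after their values were seen. The test was tried on simulated counts. At depths of 26640541 to 43851997 counts, a floor of 3 counts covers counting error only. Upstream sequences and coordinates are RefSeq's, assembly TAIR10.1, and figures were drawn with matplotlib 3.10.9.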

Additional observations from a re-analysis of the deposited data

Results flagged for a closer look

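Among 49 gene and group sets of 4 libraries with any spread, 4 held a library far from the rest, where chance gives about 1 in 20 for normally distributed values. DIN2 in homozygous replicate 3 was at 4.42 TPM against 0.0212 to 0.409 TPM in the others. DIN1 in Col-0 leaf replicate 3 was at 22.9 TPM against 5.83 to 8.36 TPM; without it the homozygous difference from Col-0 leaves was 1.75 on the log2 scale (adjusted p = 0.015) in place of 1.06 (adjusted p = 0.12), both by edgeR. DIN3 in Col-0 leaf replicate 2 was at 4.59 TPM against 5.77 to 5.95 TPM. DIN2 in Col-0 leaf replicate 2 was at 0.0111 TPM, 1 estimated count, against 0 in the others. Any library with a count beside others all at 0 is flagged, so this set carries no weight against the chance rate.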

How the results depend on the processing

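With RLE size factors no call among the 10 genes changed, in any of the 13 comparisons. Among all alternatives that kept every library, among values called in either analysis the direction reversed only for DIN4 in homozygous seedlings, from -0.15 against siblings to 0.56 with limma on log2(TPM + 1) and 0.59 on log2(TPM + 0.1), and from -0.24 against Col-0 leaves to 0.48 and 0.51; a shift of 0.74 between the TPM and TMM scales for the median gene accompanies this. On those 2 scales limma called 9 and 10 genes against siblings and 9 and 10 against Col-0 leaves (5 and 5 in edgeR). The shares of all genes that limma called there are not given here, so these counts describe the scaling and not the set. In pAP142 t1 against Col-0 t1 it called 5 and 5 (8 in edgeR), and in pAP141 from evening to morning 2 and 2 (4 in edgeR), where the compared groups alone gave 7. DESeq2 called 1 gene in pAP141 t1 against Col-0 t1 (0 in edgeR) and 2 in pAP142 t2 against Col-0 t2 (0), and gained 1 call each in Col-0 (DIN10) and pAP141 (TPS9) from evening to morning, and against siblings (DIN1) and Col-0 leaves (DIN6). Where no value above shows it, the cause was not tested.

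Leaving out 1 library at a time gave 3 to 7 calls in pAP142 t1, 0 to 3 in pAP142 t2, 3 to 5 in homozygous against sibling and 4 to 7 in homozygous against Col-0 leaf. In pAP142 t1, DIN3 (adjusted p = 0.052) and TPS11 (adjusted p = 0.051) did not pass without the filter on counts. Replicate numbers did not pair the libraries: same-numbered libraries had a mean correlation of 0.02 in the time-of-day and -0.03 in the pAP146 experiment. Over all genes, DESeq2 called 1082 in pAP141 t1 against Col-0 t1 (16 in edgeR), 456 in pAP141 t2 (21, with 13 by limma on log2(TPM + 1) and 9 for the groups alone), 12 and 248 for the differing morning change of pAP141 and pAP142 (0 and 45) and 39 in heterozygotes (11). Leaving out 1 library gave 13 to 2418, 10 to 2472, 0 to 138, 3 to 53 and 0 to 8 there in that order, 2190 to 3789 in pAP142 t1 (3916) and 661 to 2544 in pAP142 t2 (1654). The groups alone gave 1047 in pAP142 t2 and 12 for the morning change of pAP142. With the replicate block, calls among the 10 were 4 in Col-0 from evening to morning, 5 in pAP141, 2 in pAP142, 7 in pAP142 t1, 5 in each homozygous comparison and 0 in the others, with 15 genes in all for the morning change of pAP142 and 0 in heterozygotes. Depth limits DIN2 in leaves, where 8 of 11 libraries held no count.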
